A study of Homo sapiens with 33 samples.

Results

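The genes described here are 41 genes of FGF and PDGF signalling: FGF ligands and their intracellular relatives, FGF receptors and co-receptors, the feedback inhibitors and ETS transcription factors that lie downstream, and the PDGF ligands and receptors. They were named by gene symbol, with no threshold on a measured value but with earlier results of these data known, and all 41 were found among the 58735 genes of the deposited count table. The cells were clone 24 of H9-DDdCas9VP192-FOXL2, made from H9 human embryonic stem cells (an established line). They carry guides for FOXL2 and a destabilised dCas9 activator that is switched on by doxycycline (DOX) and trimethoprim (TMP). Every group carried these constructs and was taken through the same gonadal differentiation. The first medium held activin A, CHIR99021, dorsomorphin and a ROCK inhibitor, and the next BMP7 and CHIR99021. The last medium before day 4 held dorsomorphin and CHIR99021, and neither is named for the media from day 4 on. Time and this change of medium cannot be told apart in comparisons with day 4. No FGF or PDGF is named for any of the media. Of the 11 groups, one was sampled at day 4, ahead of induction. The others were non-induced (CTRL, no DOX and no TMP) and induced (IND, DOX and TMP from day 4 on) cells on 5 later days, from day 6 to day 14. Each group had 3 libraries, which were technical replicates of 1 biological replicate of 1 clone, so that the p-values measure only the spread between such libraries. No group received DOX and TMP without FOXL2 activation, so the effects of the compounds and of FOXL2 cannot be told apart.

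FGFs are secreted proteins that bind receptor tyrosine kinases with the help of heparan sulfate and signal through the RAS-ERK pathway. The ETS factors ETV1, ETV4 and ETV5 are classical targets of that pathway, and SPRY, SPRED and DUSP proteins are induced by it and restrain it. PDGFs act through PDGFRA and PDGFRB, receptors known from mesenchyme and, in the gonad, from interstitial and steroidogenic cell precursors. FGF signals also pattern the early mesoderm, and both families act in gonad formation.

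The libraries held between 23940837 and 51912815 counts. FOXL2 lay between 149 and 570.4 CPM (counts scaled to library size with edgeR's TMM factors) after induction and at 0.378 CPM or less without it. One library stood apart, IND replicate 2 of day 10, with the lowest total, a median correlation of 0.947 with its group and 0.691% mitochondrial counts. At day 4, replicate 3 had 1.14% mitochondrial counts, and the other day 4 libraries had 3.33% and 4.28%. The calls against day 4 that changed without day 4 replicate 3 are named, and the day 10 fold changes described for a single gene are also given without IND replicate 2. In bulk RNA, fewer cells of a type and less RNA per cell cannot be told apart. A gene counted as at the floor in a group where no library had over 3 counts, a limit that covers counting error only. Of the 41 genes, 34 reached a mean of 1 CPM in at least 1 group, and FGF1, FGF14, FGF16, FGF20, FGF22, KL and KLB did not.

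The receptors were the most abundant of these genes per length. In the deposited FPKM, which is scaled to gene length, PDGFRA led at day 4 with 71.2 ± 6.39 (mean ± SD, n = 3), above FGFR1 with 31.7 ± 0.511, FGFR2 with 28.7 ± 3.603, FGFR3 with 25.1 ± 6.005 and PDGFRB with 24.6 ± 2.195. The gap below PDGFRA was larger than the spread, and those among FGFR2, FGFR3 and PDGFRB were not. The highest ligands at day 4 were FGF19 with 7.86 ± 0.413 FPKM, PDGFA with 6.51 ± 2.29, FGF17 with 5.32 ± 0.664, FGF8 with 4.57 ± 0.604 and FGF18 with 4.19 ± 0.595. At day 14 the first place among the ligands was held by PDGFC, with 23.7 ± 1.72 FPKM in CTRL and 21.8 ± 0.504 in IND libraries. PDGFRA remained the first receptor in CTRL libraries on all 5 days, whereas in IND libraries FGFR2 held that place at day 10 with 40.97 ± 4.71 FPKM against 25.4 ± 3.298 for PDGFRA, and at day 12 with 31.3 ± 5.31 against 22.4 ± 2.94. Among the inhibitors and ETS factors, DUSP6 was first at day 4 with 13.9 ± 1.13 FPKM and SPRED2 first in CTRL libraries at day 14 with 8.86 ± 0.913.

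The first question was how these genes behaved as non-induced cells differentiated. Each CTRL group was compared with day 4 (DIFF) by edgeR's quasi-likelihood test over all genes, with Benjamini-Hochberg adjustment and a threshold of 0.05 on the adjusted p. The 5 comparisons share the day 4 libraries, and in each of them time and the change of medium at day 4 go together. At day 6, 22 of 35 members tested were called, 5 higher and 17 lower, where 11.0% of all genes tested were called higher and 10.6% lower. At day 8 there were 8 higher and 16 lower among 36 tested (all genes 18.1% and 18.9%), and at day 10 there were 10 higher and 16 lower among 36 (23.1% and 22.0%). At day 12 the counts were 10 higher and 15 lower among 37 (24.4% and 23.8%), and at day 14 they were 11 higher and 14 lower among 36 (24.6% and 22.9%). The median log2 fold change of the members tested was -0.44 at day 6 and -0.27 at day 14, and that of all genes tested lay between -0.0053 and 0.0031. In total, 33 members were called on at least 1 day. On all 5 days 12 were lower (FGF2, FGF4, FGF8, FGF10, FGF12, FGF17, FGF19, FGFR1, FGFR4, SPRY1, SPRED1 and DUSP6). On all 5 days 3 were higher (FGF7, DUSP4 and PDGFC). The share of all genes called on at least 1 day or on all 5 is not given here. These counts over several days thus cannot be read as particular to the members. Some of the calls were fragile. At day 6 those of FGFR4, FGF10 and FGF12 passed the threshold in 5, 7 and 8 of 12 alternatives. That of FGF10 at day 12 passed in 7 and that of SPRED1 at day 14 in 0. Without day 4 replicate 3, 25, 26, 29, 25 and 25 members were called on the 5 days in order. The share of all genes called in these fits is not given here, so these counts and the calls gained cannot be read as particular to the members. The calls gained were FGF5, FGFR3 and SPRED2 at day 6, FGF13 and SPRED2 at day 8, FGF13, FGFR3 and PDGFRB at day 10 and PDGFA at day 14, and the 1 lost was SPRED1 at day 14. SPRED2 then had -0.87 (SE 0.14, adjusted p = 5.72e-05) at day 6, FGFR3 0.41 (SE 0.1, adjusted p = 0.00334) and FGF13 -0.54 (SE 0.12, adjusted p = 0.00146) at day 10, and PDGFA -0.47 (SE 0.17, adjusted p = 0.0354) at day 14, on the log2 scale.

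**Figure D1:**
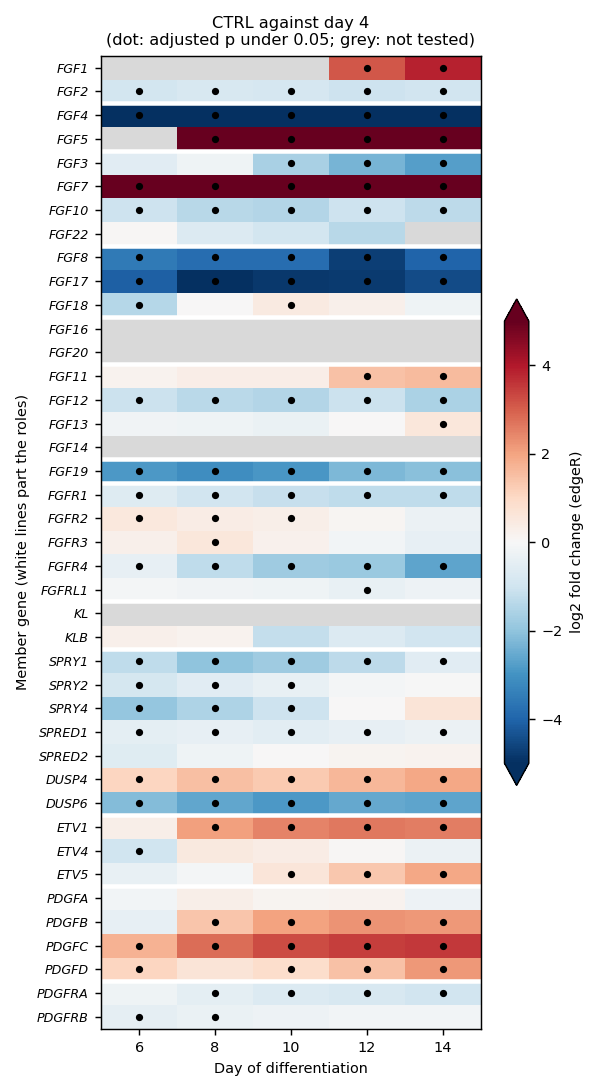
Log2 fold change of each of the 41 genes in CTRL against day 4 (colour, from lower in blue to higher in red, cut at 5 in size) by day of differentiation. Dots mark an adjusted p under 0.05 and grey cells genes not tested; blue rows with 5 dots are the 12 genes lower on all days.

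The FGFs that mark the primitive streak and early mesoderm were high at day 4 and low in every later group. FGF17, an FGF8 relative, was at 14.7/18.4/18.3 CPM in the day 4 libraries (replicates 1/2/3, an order used throughout). CTRL libraries had 0.826/0.951/1.26 CPM (day 6), 0.4898/0.559/0.455 (day 8), 0.469/0.5101/0.894 (day 10), 0.727/0.508/0.668 (day 12), 0.757/1.12/0.4504 (day 14). IND libraries had 0.609/1.17/1.09 CPM (day 6), 0.963/0.692/0.629 (day 8), 0.745/0.21/0.6403 (day 10), 1.12/0.767/0.681 (day 12), 0.611/0.566/0.528 (day 14). Every later library was far below the lowest day 4 library. The log2 fold change was -4.096 (SE 0.23, adjusted p = 9.69e-07) at day 6 and -4.49 (SE 0.299, adjusted p = 4.95e-06) at day 14.

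FGF8, which guides migrating mesoderm, was at 7.24/5.898/5.73 CPM at day 4. CTRL libraries had 0.649/0.528/0.498 CPM (day 6), 0.646/0.534/0.187 (day 8), 0.5504/0.371/0.467 (day 10), 0.172/0.243/0.323 (day 12), 0.405/0.561/0.205 (day 14). IND libraries had 0.635/0.655/1.11 CPM (day 6), 1.04/1.49/0.467 (day 8), 0.311/0.714/0.6196 (day 10), 0.682/1.27/0.204 (day 12), 0.336/0.221/0.274 (day 14). No later library reached the day 4 values, and the log2 fold change was -3.52 (SE 0.28, adjusted p = 9.36e-06) at day 6. FGF19, the endocrine member of this set, was at 17.97/18.5/20.1 CPM at day 4. CTRL libraries had 1.68/2.85/3.22 CPM (day 6), 1.96/3.16/1.74 (day 8), 2.49/1.79/3.52 (day 10), 3.06/5.04/4.42 (day 12), 5.16/5.26/3.32 (day 14). IND libraries had 1.35/2.31/3.88 CPM (day 6), 3.85/3.33/2.44 (day 8), 3.75/5.79/4.13 (day 10), 6.69/4.82/4.22 (day 12), 3.06/4.43/2.72 (day 14). Its fall was smaller than that of FGF17, with a log2 fold change of -2.88 (SE 0.23, adjusted p = 1.13e-05) at day 6 and -2.08 (SE 0.21, adjusted p = 4.41e-05) at day 14. FGF4, a ligand of pluripotent cells, was at 5.23/4.96/3.24 CPM at day 4 and at the floor in CTRL at days 6, 8, 10 and 12. Against a floor of 3 counts per library it was at least 50.6-fold lower at day 6 and at least 67.5-fold lower at day 12.

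FGF2, the ligand that stem cell media supply, fell by less. It was at 19.7/17.8/21.97 CPM at day 4, then at 10.3/9.59/12.5 CPM (day 6), 14.03/10.2/11 (day 8), 12.1/10.2/11.7 (day 10), 8.79/10.6/10.5 (day 12), 11.8/11.7/8.47 (day 14) in CTRL and at 12.3/9.05/10.4 CPM (day 6), 11.5/11.6/10.3 (day 8), 10.6/11.8/9.31 (day 10), 8.64/10.2/9.803 (day 12), 9.65/11.3/9.87 (day 14) in IND libraries. Each later library was below each day 4 library, and CTRL and IND overlapped on every day. edgeR gave a log2 fold change of -0.899 (SE 0.17, adjusted p = 0.00302) at day 6 and -0.94 (SE 0.18, adjusted p = 0.00188) at day 14. FGF2 shares 11.9% of its exon bases with NUDT6 on the opposite strand, and the libraries were non-directional, so its counts are uncertain to that extent. FGF3, a relative of FGF7 and FGF10, fell later, from 3.04/2.01/2.46 CPM at day 4 to 0.135/0.772/0.246 in CTRL at day 14, which gave -2.75 (SE 0.57, adjusted p = 0.00318) on the log2 scale.

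FGF7, FGF5 and FGF1 went the other way. FGF7, a mesenchymal ligand for epithelial FGFR2, was at the floor at day 4 and reached 1.92/1.66/1.75 CPM in CTRL at day 6 and 4.92/6.804/4.38 at day 14. Against the floor it was at least 16.8-fold higher at day 6 and at least 50.7-fold at day 14. FGF5 was also at the floor at day 4, and it reached 3.51/2.84/4.01 CPM in CTRL and 3.42/1.55/1.97 in IND libraries at day 14, at least 32.6-fold above the floor in CTRL. FGF1 was called at days 12 and 14 but stayed under 1 CPM in its group means, with 0.622/0.526/1.06 CPM in the CTRL libraries of day 14.

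The FGF receptors parted. FGFR1, the main receptor of stem cells and mesoderm, was at 436/430/425 CPM at day 4. In CTRL it lay at 312/267/268 CPM (day 6), 216/234/232 (day 8), 217/191/201 (day 10), 187/181/187 (day 12), 184/180/189 (day 14), and in IND at 235/242/286 CPM (day 6), 237/242/202 (day 8), 192/215/203 (day 10), 140/166/175 (day 12), 156/182/159 (day 14). All later libraries were below day 4, with a log2 fold change of -1.27 (SE 0.0996, adjusted p = 1.07e-05) at day 14 in CTRL. FGFR4 was at 96.99/110/108 CPM at day 4 and at 79.7/90.3/73.1 CPM (day 6), 36.7/62.3/37.2 (day 8), 29.01/21.6/43.96 (day 10), 18.9/35.7/35.8 (day 12), 18.9/17.9/15.8 (day 14) in CTRL libraries. Its log2 fold change was -1.26 (SE 0.19, adjusted p = 0.00114) at day 8 and -2.63 (SE 0.12, adjusted p = 8.08e-07) at day 14, the largest fall among the receptors in CTRL. FGFR2, the receptor of epithelia, was at 191/204/245 CPM at day 4 and 297/297/345 in CTRL at day 6, where it was higher by a log2 fold change of 0.53 (SE 0.13, adjusted p = 0.0135). This call was lost without day 4 replicate 1 (0.0943) or CTRL replicate 3 (0.0724). At day 14 FGFR2 was back at 191/158/197 CPM, with -0.27 (SE 0.13, adjusted p = 0.105). FGFRL1, a receptor without a kinase domain, went from 64.3/59.5/63.3 CPM at day 4 to 54.6/57.2/48.9 in CTRL and 52.2/61.03/47.4 in IND libraries at day 14, and its lowest and highest libraries after day 4 were 47.95 to 67.6 CPM in CTRL and 47.4 to 66.2 in IND. Against day 4 it was called at day 12 alone, with -0.37 (SE 0.088, adjusted p = 0.0084).

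Feedback inhibitors and ETS factors, which the same pathway is known to induce, did not move as a block. DUSP6, the phosphatase of ERK, fell most, from 60.8/68.4/59.8 CPM at day 4 to 13.2/15.9/13.8 CPM (day 6), 10.5/12.97/9.13 (day 8), 7.502/7.51/11.5 (day 10), 9.25/11.8/12.3 (day 12), 11.3/10.5/9.38 (day 14) in CTRL and 13.9/11.1/15.01 CPM (day 6), 14.3/13.5/12.1 (day 8), 10.4/8.78/13.5 (day 10), 13.5/14.7/12.9 (day 12), 9.78/12.6/7.92 (day 14) in IND libraries. The groups did not overlap with day 4, and the log2 fold change was -2.17 (SE 0.14, adjusted p = 2.26e-06) at day 6 and -2.64 (SE 0.13, adjusted p = 1.19e-06) at day 14. SPRY1 fell and partly returned, from 16.6/18.03/16.1 CPM at day 4 to 6.61/8.43/6.52 CPM (day 6), 3.61/4.23/5.27 (day 8), 4.55/4.87/5.69 (day 10), 7.17/6.32/7.904 (day 12), 11.7/10.9/12.9 (day 14) in CTRL. Its log2 fold change was -2.002 (SE 0.18, adjusted p = 6.27e-05) at day 8 and -0.56 (SE 0.15, adjusted p = 0.0118) at day 14, the latter lost without CTRL replicate 1 (0.0584).

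SPRY2 had 23.1/24.5/23.9 CPM at day 4. CTRL libraries had 11.3/13.9/13.9 CPM (day 6), 13.2/19.4/17.05 (day 8), 19.2/16.9/20.9 (day 10), 19.7/23.9/25.4 (day 12), 24.7/23.7/23.5 (day 14). IND libraries had 15.8/15.01/17.9 CPM (day 6), 17.8/15.01/14.2 (day 8), 19.5/19.9/22.5 (day 10), 27.2/24.3/25.6 (day 12), 23.7/25.3/30.9 (day 14). It was lower at day 6 with -0.89 (SE 0.15, adjusted p = 0.00161), and at day 14 the difference from day 4 was -0.037 (SE 0.12, adjusted p = 0.821). For SPRY4 the log2 fold change was -1.92 (SE 0.38, adjusted p = 0.00422) at day 6 and 0.63 (SE 0.34, adjusted p = 0.153) at day 14. SPRED1, an inhibitor of RAS activation, was at 58.4/61.4/68.2 CPM at day 4. CTRL libraries had 42.3/46.4/48.2 CPM (day 6), 51.5/45.8/48.3 (day 8), 43.5/42.1/49.2 (day 10), 46.6/53.8/48.1 (day 12), 50.03/53.7/53.3 (day 14). IND libraries had 43.2/44.04/53.7 CPM (day 6), 59.4/61.7/42.1 (day 8), 43.7/92/47.7 (day 10), 32.3/54.4/52.9 (day 12), 48.9/53.3/59.1 (day 14). Its fall was small, -0.53 (SE 0.102, adjusted p = 0.00278) at day 10, and the day 14 call (-0.305 (SE 0.11, adjusted p = 0.0392)) was lost under each of 12 alternatives, without day 4 replicate 3 at an adjusted p of 0.0675.

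DUSP4, a nuclear phosphatase of the same family, rose while DUSP6 fell. It was at 8.44/6.47/7.05 CPM at day 4. CTRL libraries had 16.5/16.8/14.2 CPM (day 6), 18.4/27.4/19.1 (day 8), 17.4/18.04/21.6 (day 10), 20.7/24.2/26.2 (day 12), 27.9/36.6/21.2 (day 14). IND libraries had 10.5/13.7/18.8 CPM (day 6), 33.5/32.9/21.3 (day 8), 21.04/45.8/26.9 (day 10), 26.2/20.6/25.3 (day 12), 17.6/22.99/14.2 (day 14). Its log2 fold change was 1.09 (SE 0.18, adjusted p = 0.00141) at day 6 and 1.92 (SE 0.22, adjusted p = 0.000112) at day 14. ETV1 and ETV5 rose. ETV1 was at 5.01/5.496/5.005 CPM at day 4 and at 5.99/7.03/6.26 in CTRL at day 6, then rose to 17.6/24.9/24.2 at day 8, with 2.05 (SE 0.17, adjusted p = 4.57e-05) there and 2.54 (SE 0.16, adjusted p = 3.61e-06) at day 14. ETV5 rose from 3.88/4.16/3.21 CPM at day 4 to 15.3/16.6/12.5 in the CTRL libraries of day 14, or by 1.93 (SE 0.202, adjusted p = 5.56e-05) on the log2 scale. ETV4 was called at day 6 alone, lower with -0.99 (SE 0.297, adjusted p = 0.0345), a call lost without day 4 replicate 1 (0.179) or CTRL replicate 1 (0.131), 2 (0.0677) or 3 (0.114). At day 8 it had 0.498 (SE 0.27, adjusted p = 0.184) and at day 14 -0.298 (SE 0.31, adjusted p = 0.456). DUSP6 shares 40.5% of its exon bases with an annotated gene on the opposite strand, AC024909.2, and reads from either cannot be told apart here.

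Among the PDGF ligands, which recruit mesenchymal cells, PDGFC rose throughout. It was at 9.07/11.96/12.3 CPM at day 4. CTRL libraries had 30.5/43.8/39.6 CPM (day 6), 80.1/86.1/75.6 (day 8), 109/111/110 (day 10), 113/132/132 (day 12), 140/121/136 (day 14). IND libraries had 49.8/52.3/49.9 CPM (day 6), 79.98/79.9/94.8 (day 8), 107/61.1/101 (day 10), 95.4/121/108 (day 12), 118/124/126 (day 14). On the log2 scale the change was 1.75 (SE 0.18, adjusted p = 5.69e-05) at day 6, 3.26 (SE 0.13, adjusted p = 5.02e-07) at day 10 and 3.52 (SE 0.14, adjusted p = 5.61e-07) at day 14, and no CTRL library overlapped with day 4. PDGFB, known as the ligand of endothelium for pericytes, was at 3.18/4.96/1.7 CPM at day 4. CTRL libraries had 3.13/2.299/2.04 CPM (day 6), 6.68/9.86/10.1 (day 8), 14.98/11.6/14.2 (day 10), 13.8/17.6/16.5 (day 12), 13.8/14.2/18.1 (day 14). IND libraries had 2.38/3.53/4.52 CPM (day 6), 12.9/11.7/8.04 (day 8), 12.9/20.7/16.01 (day 10), 15.4/17.4/14.8 (day 12), 10.1/15.7/12.3 (day 14). It was called higher from day 8 on, with 2.18 (SE 0.34, adjusted p = 0.000678) at day 14. PDGFD was at 5.33/6.33/3.37 CPM at day 4, at 10.3/9.06/12.8 CPM (day 6), 7.72/7.19/9.63 (day 8), 9.66/10.3/8.901 (day 10), 18.4/11.6/12.6 (day 12), 22.1/17.6/30.9 (day 14) in CTRL and at 18.8/13.1/11.7 CPM (day 6), 8.51/11.2/19.2 (day 8), 11.6/7.18/11.5 (day 10), 13.04/14.7/21.2 (day 12), 30.9/25.5/41.98 (day 14) in IND libraries, with 2.18 (SE 0.28, adjusted p = 0.000216) at day 14. PDGFD was called higher on every day but day 8, where it had 0.66 (SE 0.25, adjusted p = 0.0713). The receptor PDGFRA was lower from day 8 on. Its CTRL values against day 4 gave -0.48 (SE 0.099, adjusted p = 0.00521) at day 8 and -0.97 (SE 0.13, adjusted p = 0.000227) at day 14. For PDGFRB the difference from day 4 was -0.44 (SE 0.14, adjusted p = 0.0378) at day 6, a call lost without day 4 replicate 1 (0.14) or 2 (0.0772) or CTRL replicate 2 (0.174) or 3 (0.143), and -0.13 (SE 0.11, adjusted p = 0.342) at day 14.

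**Figure D2:**
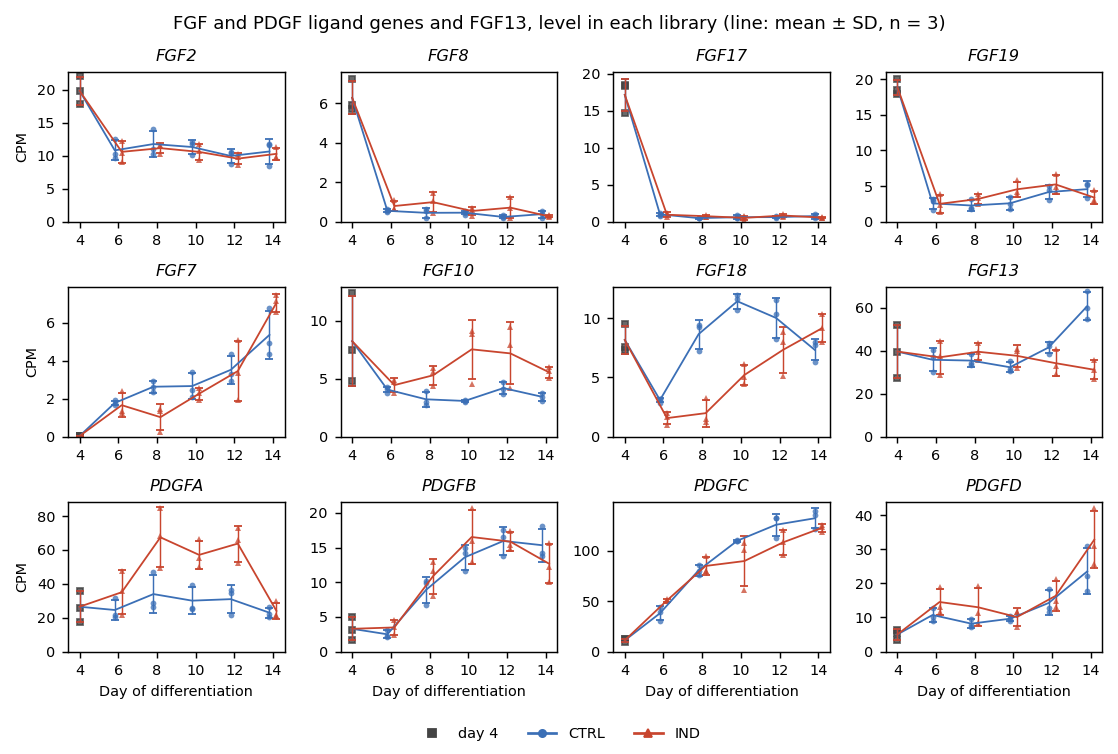
Level in CPM (y axis, from 0) of 11 ligand genes and of FGF13, an intracellular relative, by day of differentiation, with every library as a point and lines through group means with SD, n = 3. FGF8, FGF17 and FGF19 drop after day 4, PDGFC climbs in both arms, and FGF18 in the IND arm lies below CTRL without overlap at days 6, 8 and 10.

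The second question was what FOXL2 induction changed, from IND against CTRL of the same day, tested in the same way on the 6 libraries of each day. At day 6, 4 of 37 members tested were called, all lower (2.37% of all genes were called lower and 1.29% higher). At day 8 there were 9 of 36, 2 higher and 7 lower (all genes 7.49% and 6.67%), and at day 10 there were 2 of 35, both lower (0.856% higher and 1.18% lower). At day 12 there were 4 of 37, 2 in each direction (2.38% and 3.04%), and at day 14 there were 4 of 35, 1 higher and 3 lower (3.21% and 5.22%). Of these 23 calls, 18 were lower in IND. The median log2 fold change of the members was between -0.050 (day 14) and 0.23 (day 10), and that of all genes between -0.012 and 0.020. Without IND replicate 2 of day 10, 10 members were called there, 5 higher and 5 lower, where 8.74% of all genes were called higher and 9.51% lower. In all, 15 members were called on at least 1 day and 26 on none, among which FGF4 and FGF16 were too low to be tested on any day. The share of all genes called on at least 1 day is not given here, so these counts cannot be read as particular to the members.

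**Figure D3:**
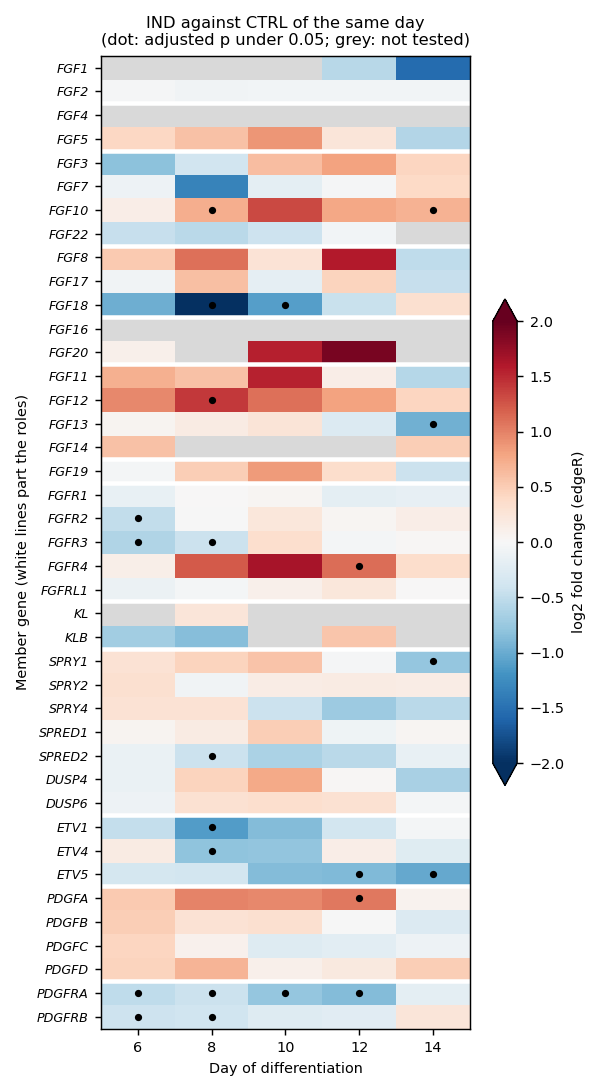
Log2 fold change of each of the 41 genes in IND against CTRL (colour, cut at 2 in size) by day of differentiation, with dots at an adjusted p under 0.05 and grey cells for genes not tested. PDGFRA has dots on 4 of the 5 days, and most dots of days 6 and 8 lie on lower values.

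PDGFRA was the member called most often, lower in IND from day 6 to day 12. PDGFRA (ENSG00000134853, chromosome 4 from 54229097 to 54298247, plus strand, GRCh38) was at 695/726/616 CPM at day 4. CTRL libraries had 580/580/627 CPM (day 6), 517/505/492 (day 8), 463/427/409 (day 10), 383/417/419 (day 12), 394/362/322 (day 14). IND libraries had 475/414/357 CPM (day 6), 350/377/388 (day 8), 278/204/259 (day 10), 189/227/247 (day 12), 314/298/329 (day 14). Every IND library was below every CTRL library at days 6, 8, 10 and 12, and at day 14 they overlapped. This was a log2 fold change of -0.51 (SE 0.11, adjusted p = 0.011) at day 6, -0.43 (SE 0.068, adjusted p = 0.0017) at day 8 and -0.87 (SE 0.13, adjusted p = 0.00654) at day 12. At day 10 it was -0.78 (SE 0.13, adjusted p = 0.0399) with all libraries and -0.68 (SE 0.075, adjusted p = 2.75e-05) without IND replicate 2. At day 14 it was -0.19 (SE 0.094, adjusted p = 0.262). The day 6 call was lost without IND replicate 2 (0.0712) or 3 (0.0652) and the day 10 call without CTRL replicate 1 (0.264), 2 (0.235) or 3 (0.135) or IND replicate 1 (0.0932) or 3 (0.15), and also with the replicate number as a block (0.123). The interaction of day and induction, tested with its 4 terms together over the 30 libraries after day 4, had an adjusted p of 0.05004 for PDGFRA, which misses the threshold. Of the exon bases of PDGFRA, 15.8% are shared with AC058822.1 on the same strand.

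PDGFRB, the receptor of pericytes and other mural cells, moved with it on the first days. It was at 177/183/156 CPM at day 4. CTRL libraries had 149/114/123 CPM (day 6), 141/131/149 (day 8), 166/137/144 (day 10), 161/157/170 (day 12), 173/156/156 (day 14). IND libraries had 96.8/100/90.7 CPM (day 6), 95.9/105/116 (day 8), 146/90.4/132 (day 10), 123/135/155 (day 12), 182/210/180 (day 14). IND lay below CTRL without overlap at days 6 and 8 and also at day 12, and above it at day 14. The log2 fold change was -0.42 (SE 0.11, adjusted p = 0.0458) at day 6, -0.403 (SE 0.085, adjusted p = 0.00954) at day 8 and 0.24 (SE 0.089, adjusted p = 0.133) at day 14. The day 6 call was lost without CTRL replicate 1 (0.103) or 3 (0.0715) or IND replicate 1 (0.074), 2 (0.139) or 3 (0.165), and also in the fit over all 33 libraries (0.0774), and that of day 8 without CTRL replicate 3 (0.059). Mesenchyme markers (7 genes, among them COL1A1 and DCN) moved in the same direction on these days, with 3 of 7 called lower at day 6 and at day 8. They had a summed level of 6646 to 9284 CPM in IND against 11369 to 15776 in CTRL at day 6 and of 11252 to 15470 against 15810 to 18740 at day 8. At day 10 the sum was 18398 and 20669 CPM in IND replicates 3 and 1 and 57394 in replicate 2, against 19840 to 21622 in CTRL, with 1 of 7 called lower. At day 12 it was 20946 to 25800 against 23191 to 24653, with 3 of 7 called lower (COL1A1, LUM and PRRX1). Collagen genes made up most of the sum, at day 6 in CTRL with means of 4099 (COL1A1), 3022 (COL1A2) and 6190 CPM (COL3A1), so it says little about the other markers. At day 14 the sum was 28547 to 33451 CPM in IND against 20075 to 26488 in CTRL, with 1 of 7 called higher. Pericyte markers (5 genes) were called for 0 of 5 at days 6, 10 and 12, with ACTA2 higher at day 8 and CSPG4 higher and MYH11 lower at day 14. Their summed level was 348 to 438 CPM in IND against 356 to 503 in CTRL at day 6. The part of both lists in the PDGF receptor values was not tested.

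**Figure D4:**
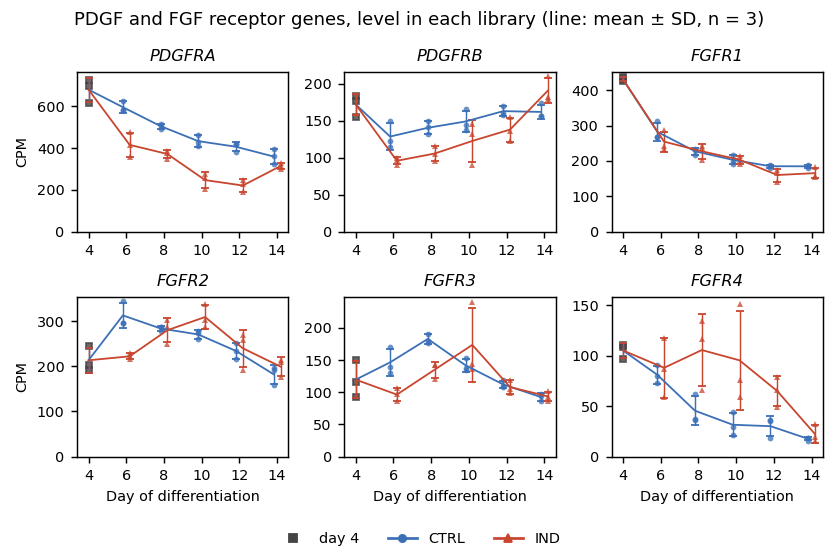
Level in CPM (y axis, from 0) of 6 receptor genes by day of differentiation, with every library as a point and lines through group means with SD, n = 3. PDGFRA in IND lies below CTRL from day 6 to day 12, and FGFR4 in IND lies above CTRL without overlap at days 8, 10 and 12.

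FGFR2 and FGFR3 were lower in IND at the start of induction. FGFR2 (ENSG00000066468) was at 222/215/229 CPM in IND against 297/297/345 in CTRL at day 6, without overlap, a log2 fold change of -0.49 (SE 0.094, adjusted p = 0.00579). In CTRL it then had 287/278/286 CPM (day 8), 279/259/273 (day 10), 216/252/235 (day 12), 191/158/197 (day 14). In IND it had 286/303/250 CPM (day 8), 286/339/302 (day 10), 192/269/259 (day 12), 175/213/209 (day 14). The arms overlapped at days 8, 12 and 14, and at day 10 every IND library was above every CTRL library, with 0.23 (SE 0.12, adjusted p = 0.416) and, without IND replicate 2, 0.13 (SE 0.065, adjusted p = 0.21). The day 6 call was lost without IND replicate 2 (0.0648).

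FGFR3 (ENSG00000068078, chromosome 4 from 1793293 to 1808872, plus strand) was at 116/92.3/151 CPM at day 4. CTRL libraries had 170/139/130 CPM (day 6), 177/180/191 (day 8), 154/138/134 (day 10), 118/108/110 (day 12), 93.4/97.9/85.8 (day 14). IND libraries had 85.8/97.1/106 CPM (day 6), 142/142/120 (day 8), 144/241/137 (day 10), 98.8/120/105 (day 12), 87.05/102/91.9 (day 14). IND lay below CTRL without overlap at days 6 and 8, and 1 library, IND replicate 2 of day 10, was the highest of all 33 libraries. edgeR gave a log2 fold change of -0.601 (SE 0.12, adjusted p = 0.00646) at day 6, -0.43 (SE 0.0795, adjusted p = 0.00443) at day 8 and 0.0204 (SE 0.088, adjusted p = 0.927) at day 14. The day 8 call was lost in the fit over all 33 libraries (0.109). At day 10 it was 0.33 (SE 0.25, adjusted p = 0.543) with all libraries and -0.011 (SE 0.072, adjusted p = 0.949) without IND replicate 2. Both receptors were called in the interaction of day and induction, in which 5 of the 39 members tested and 2.38% of all genes were called, FGFR2 with an adjusted p of 0.0493 and FGFR3 with 0.0484. These calls were lost without replicate 1 of every group, with adjusted p of 0.198 for FGFR2 and 0.473 for FGFR3, and likewise without replicate 2 (0.377 and 0.235) and without replicate 3 (0.546 and 0.263). With RLE size factors they were lost as well, at 0.0588 and 0.0539, and with the replicate number as a block that of FGFR2, at 0.0511. Without IND replicate 2 of day 10 alone, both remained called.

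FGFR4, a receptor for FGF19, was higher in IND at day 12. Its IND libraries had 58.98/87.1/118 CPM (day 6), 135/117/65.7 (day 8), 58.7/151/76.05 (day 10), 66.2/79.2/49.3 (day 12), 19.1/32.4/15.3 (day 14), to be read against the CTRL values above. The arms did not overlap at days 8, 10 and 12 and overlapped at days 6 and 14. On the log2 scale the change was 1.23 (SE 0.36, adjusted p = 0.0952) at day 8, 1.64 (SE 0.43, adjusted p = 0.134) at day 10 and 1.12 (SE 0.27, adjusted p = 0.0474) at day 12, so that the last alone passed the threshold. Day 10 without IND replicate 2 gave 1.102 (SE 0.37, adjusted p = 0.164). The day 12 call was lost without CTRL replicate 1 (0.0929), 2 (0.09) or 3 (0.0939) or IND replicate 1 (0.23) or 2 (0.121), and also in the fit over all 33 libraries (0.0539). FGFR1 and FGFRL1 were called on no day, with log2 fold changes from -0.201 to 0.038 for FGFR1 and from -0.12 to 0.22 for FGFRL1. The co-receptor KLB, which FGF19 needs together with FGFR4, had at most 0.615 CPM in a group mean, and KL at most 0.304.

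Among the members called in IND against CTRL, FGF18 had the largest log2 fold change in size. Its promoter is shown with that of FGFR3, since both were lower in IND at day 8 and both were called in the interaction. The stretches are the 250 bases before the annotated start in RefSeq (GRCh38.p14, plus strand), written 5′ to 3′ with each CG in capitals.
FGF18, chr5:171419397-171419646: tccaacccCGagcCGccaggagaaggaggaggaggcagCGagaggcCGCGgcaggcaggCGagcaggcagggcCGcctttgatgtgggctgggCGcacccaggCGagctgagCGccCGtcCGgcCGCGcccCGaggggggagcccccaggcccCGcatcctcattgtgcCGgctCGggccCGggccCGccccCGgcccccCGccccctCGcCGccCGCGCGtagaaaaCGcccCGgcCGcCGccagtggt
FGFR3, chr4:1793043-1793292: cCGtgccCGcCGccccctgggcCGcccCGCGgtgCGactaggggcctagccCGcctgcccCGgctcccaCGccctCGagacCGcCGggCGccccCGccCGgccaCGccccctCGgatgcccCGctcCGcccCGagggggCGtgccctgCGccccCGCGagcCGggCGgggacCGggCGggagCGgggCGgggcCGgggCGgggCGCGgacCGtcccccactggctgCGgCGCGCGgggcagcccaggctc
The FGF18 stretch holds 31 CG and is 78.8% G or C, and that of FGFR3 holds 40 and is 86.8%. Over the 35116 promoters of the table the medians were 11 CG and 58% G or C, and over the 58 promoters that matched 29 of the members they were 14.5 and 60.8%. The promoter of PDGFRA, which was also lower in IND at day 8, differs from both with 8 CG and 46.8% G or C. For each of these genes the first start listed in RefSeq was used, and other starts of a gene can differ. The PDGFRA stretch runs past the gene start given above, so part of it lies within the gene as annotated for the counts. The ETS letters CCGGAAGT were in 0 of the 58 member promoters (250 bases before to 50 after the start, both strands) and in 4.14% of all. The forkhead letters GTAAACA were in 2 of the 58, of FGF10 and KLB, and in 3.42% of all.

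FGF18 (ENSG00000156427, chromosome 5 from 171419656 to 171457623), a ligand of the FGF8 subfamily, was at 7.34/7.57/9.54 CPM at day 4. CTRL libraries had 3.22/2.85/3.2 CPM (day 6), 7.24/9.45/9.26 (day 8), 11.6/10.7/11.9 (day 10), 11.5/8.22/10.3 (day 12), 6.298/7.72/7.94 (day 14). IND libraries had 1.64/2.03/1.02 CPM (day 6), 1.197/1.46/3.29 (day 8), 6.11/4.997/4.48 (day 10), 8.82/5.13/7.999 (day 12), 9.14/7.94/10.3 (day 14). The means were low in both arms at day 6 and back at the day 4 level in CTRL by day 8 but in IND only at days 12 and 14. The arms did not overlap at days 6, 8 and 10, overlapped at days 12 and 14, and at day 14 the IND mean was the higher. This was a log2 fold change of -0.98 (SE 0.28, adjusted p = 0.0696) at day 6 and -2.095 (SE 0.35, adjusted p = 0.00476) at day 8, the latter past the threshold in each of 12 alternatives. At day 10 it was -1.101 (SE 0.19, adjusted p = 0.0408) with all libraries and -1.099 (SE 0.15, adjusted p = 0.000241) without IND replicate 2, and it was lost without CTRL replicate 1 (0.257), 2 (0.214) or 3 (0.162) or IND replicate 1 (0.0875) or 3 (0.154), and also with the replicate number as a block (0.155). At day 14 it was 0.33 (SE 0.17, adjusted p = 0.293). The interaction of day and induction had an adjusted p of 0.00324, and of 0.338 without replicate 1 of every group.

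FGF10, a mesenchymal ligand of FGFR2 in branching organs, was higher in IND at days 8 and 14. It was at 7.45/12.4/4.85 CPM at day 4. CTRL libraries had 4.102/3.804/4.29 CPM (day 6), 3.98/2.99/2.703 (day 8), 3.18/3.08/2.99 (day 10), 3.71/4.13/4.74 (day 12), 3.46/3.75/3.11 (day 14). IND libraries had 3.76/4.89/4.701 CPM (day 6), 4.37/5.89/5.62 (day 8), 9.15/4.58/8.88 (day 10), 4.22/7.91/9.43 (day 12), 5.07/5.63/5.98 (day 14). The arms did not overlap at days 8, 10 and 14. The log2 fold change was 0.72 (SE 0.21, adjusted p = 0.0405) at day 8 and 0.69 (SE 0.19, adjusted p = 0.0403) at day 14. At day 10 it was 1.32 (SE 0.29, adjusted p = 0.0872) with all libraries and 1.56 (SE 0.15, adjusted p = 9.52e-06) without IND replicate 2. The day 8 call was lost without CTRL replicate 2 (0.0992) or 3 (0.176) or IND replicate 2 (0.157) or 3 (0.0524), and also in the fit over all 33 libraries (0.142) and with the replicate number as a block (0.0576), and that of day 14 without CTRL replicate 1 (0.116) or 3 (0.0876) or IND replicate 1 (0.0755), 2 (0.102) or 3 (0.133), and also in the fit over all 33 libraries (0.237) and with the replicate number as a block (0.0505). The forkhead letters in its window are shown because FOXL2 is a forkhead protein.
FGF10, chr5:44389378-44389406, minus strand: aggcttcaaccTGTTTACaagcggacttt
The capitals mark the match, which reads GTAAACA on the other strand and lies 25 bases after the start in RefSeq, within an exon annotated for FGF10. It is a match of letters and no measure of binding.

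The intracellular FGFs, which are not secreted and are known as partners of sodium channels, went apart. FGF13 (ENSG00000129682) was at 39.5/52.1/27.4 CPM at day 4. CTRL libraries had 29.95/40.4/37.2 CPM (day 6), 34.4/38.7/33.3 (day 8), 30.6/31.4/35.1 (day 10), 42.2/43.9/38.7 (day 12), 67.8/60.1/54.8 (day 14). IND libraries had 28.8/37.8/44.4 CPM (day 6), 43.5/39.6/35.7 (day 8), 31.9/40.1/41.04 (day 10), 29.1/40.8/32.9 (day 12), 26.8/35.6/31.3 (day 14). The arms overlapped up to day 12, and at day 14 every CTRL library was above every IND library. edgeR gave a log2 fold change of -0.96 (SE 0.11, adjusted p = 0.000173) at day 14 and -0.27 (SE 0.14, adjusted p = 0.329) at day 12, and the interaction had an adjusted p of 0.00368, with 0.117 without replicate 1 and 0.167 without replicate 3 of every group. Neuron markers moved the same way at day 14. Of 6, 4 were called, all lower, and their sum was 283 to 345 CPM in IND against 368 to 637 in CTRL. Neural crest and glia markers did as well, with 4 of 6 called, all lower, and 344 to 414 against 609 to 1007 CPM. Both lists were also lower in IND on earlier days, on which the FGF13 arms overlapped. At day 8 the neuron sum was 59.3 to 69.5 CPM in IND against 97.6 to 142 in CTRL. That of neural crest and glia was 214 to 224 against 342 to 552 CPM. The part of these cells in the FGF13 value was not tested.

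FGF12 was higher in IND at day 8, with 6.22/5.303/3.19 CPM against 1.63/2.62/1.26 in CTRL and without overlap, a log2 fold change of 1.42 (SE 0.31, adjusted p = 0.0135). The call was lost without CTRL replicate 1 (0.0861) or 3 (0.0612) or IND replicate 2 (0.0573). At day 6 the arms did not overlap either, with 0.96 (SE 0.26, adjusted p = 0.0559). FGF11, whose exons share 75% of their bases with AC113189.4, had 1.55 (SE 0.38, adjusted p = 0.11) at day 10 and 1.304 (SE 0.28, adjusted p = 0.00483) without IND replicate 2. FGF14 was at most 0.353 CPM in a group mean.

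Of the feedback inhibitors, SPRY1 and SPRED2 were each called once. SPRY1, a Sprouty protein, had 7.76/7.55/10.9 CPM (day 6), 7.23/6.12/4.47 (day 8), 5.11/9.41/7.31 (day 10), 6.38/7.93/6.71 (day 12), 6.905/6.64/7.11 (day 14) in IND libraries, against the CTRL values given above. The arms overlapped from day 6 to day 12, and at day 14 every IND library was below every CTRL library. On the log2 scale the change was 0.45 (SE 0.22, adjusted p = 0.201) at day 8 and -0.78 (SE 0.15, adjusted p = 0.00432) at day 14, and the interaction had an adjusted p of 0.0433. The interaction call was lost without replicate 1 (0.461), 2 (0.235) or 3 (0.276) of every group. SPRED2 was at 42.9/49.9/23.7 CPM at day 4. CTRL libraries had 26.3/26.6/25.3 CPM (day 6), 34.02/36.2/34.8 (day 8), 43.2/40.7/39.4 (day 10), 40.6/46.9/45.1 (day 12), 50.9/41.5/44.3 (day 14). IND libraries had 21.7/21.5/27.8 CPM (day 6), 27.7/27.6/22.1 (day 8), 27.5/20.3/30.2 (day 10), 21.9/32.9/36.3 (day 12), 39.1/44.8/39.7 (day 14). IND lay below CTRL without overlap at days 8, 10 and 12. This was a log2 fold change of -0.43 (SE 0.099, adjusted p = 0.0144) at day 8 and -0.54 (SE 0.18, adjusted p = 0.139) at day 12, and at day 10 it was -0.63 (SE 0.16, adjusted p = 0.118) with all libraries and -0.504 (SE 0.082, adjusted p = 0.00076) without IND replicate 2. The day 8 call was lost without CTRL replicate 3 (0.0575), and also in the fit over all 33 libraries (0.168). DUSP6, SPRY2, SPRY4, SPRED1 and DUSP4 were called on no day.

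Each of the 3 ETS factors was called lower in IND on at least 1 day. ETV1 had 11.2/10.7/8.65 CPM in IND against 17.6/24.9/24.2 in CTRL at day 8, 15.6/10.8/21.95 against 29.7/28.2/31.99 at day 10, 17.7/27.6/32 against 29.4/33.7/36.9 at day 12 and 31.1/30.6/28.9 against 35.98/30.6/26.9 at day 14. At day 6 the values were 4.98/4.28/4.59 against 5.99/7.03/6.26. The arms were apart up to day 10 and overlapped afterwards. The log2 fold change was -1.12 (SE 0.15, adjusted p = 0.000697) at day 8, past the threshold in each of 12 alternatives. At day 10 it was -0.86 (SE 0.24, adjusted p = 0.155) with all libraries and -0.67 (SE 0.13, adjusted p = 0.00401) without IND replicate 2, and at day 14 it was -0.044 (SE 0.11, adjusted p = 0.869). ETV4 was called at day 8 alone, with 3.02/3.69/4.36 CPM in IND and 6.1/7.699/5.75 in CTRL and a log2 fold change of -0.81 (SE 0.19, adjusted p = 0.0176), a call lost without CTRL replicate 1 (0.0563) or 2 (0.0641) or IND replicate 1 (0.0583) or 2 (0.0665), and also in the fit over all 33 libraries (0.201).

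ETV5 (ENSG00000244405) was lower late. It was at 3.88/4.16/3.21 CPM at day 4. CTRL libraries had 2.54/3.17/3.08 CPM (day 6), 3.58/4.44/2.84 (day 8), 5.85/6.51/5.57 (day 10), 9.52/9.37/10.6 (day 12), 15.3/16.6/12.5 (day 14). IND libraries had 2.04/2.64/2.203 CPM (day 6), 2.63/2.77/2.98 (day 8), 3.04/2.86/3.72 (day 10), 4.22/6.003/5.68 (day 12), 7.67/7.84/6.31 (day 14). The means went up in both arms after day 8, and the arms did not overlap at days 10, 12 and 14. edgeR gave a log2 fold change of -0.89 (SE 0.18, adjusted p = 0.0264) at day 12 and -1.02 (SE 0.16, adjusted p = 0.00109) at day 14, the latter past the threshold in each of 12 alternatives. At day 10 it was -0.86 (SE 0.21, adjusted p = 0.11) with all libraries and -0.81 (SE 0.17, adjusted p = 0.00521) without IND replicate 2. The day 12 call was lost without CTRL replicate 1 (0.077), 2 (0.0875) or 3 (0.126) or IND replicate 3 (0.0539). None of the ETS factors was called in the interaction, where ETV1 had an adjusted p of 0.0943 and ETV5 of 0.352, so a difference between the days was not shown for them.

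**Figure D5:**
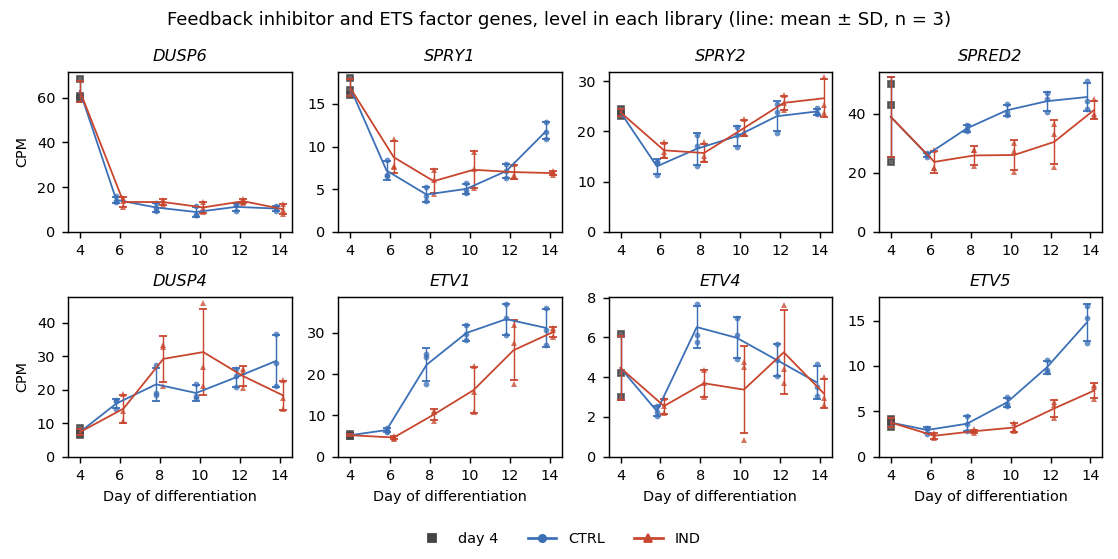
Level in CPM (y axis, from 0) of 5 feedback inhibitor genes and 3 ETS factor genes by day of differentiation, with every library as a point and lines through group means with SD, n = 3. DUSP6 drops after day 4 in both arms, and ETV1 and ETV5 rise in CTRL with IND below, ETV1 at days 8 and 10 and ETV5 from day 10 on.

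PDGFA, a main ligand of PDGFRA, was higher in IND at day 12, where its receptor was lower. It was at 25.7/35.9/17.7 CPM at day 4. CTRL libraries had 20.4/31.4/21.9 CPM (day 6), 26.5/46.7/28.6 (day 8), 25.4/25.6/39.2 (day 10), 21.6/34.7/36.5 (day 12), 20.6/26.2/21.99 (day 14). IND libraries had 21.6/35.8/47.6 CPM (day 6), 84.6/68.3/49.4 (day 8), 49.9/54.97/66.3 (day 10), 65.9/73.1/52.1 (day 12), 21.4/29.6/21.1 (day 14). The arms did not overlap at days 8, 10 and 12 and overlapped at days 6 and 14. On the log2 scale the change was 0.9996 (SE 0.29, adjusted p = 0.0844) at day 8, 0.96 (SE 0.21, adjusted p = 0.089) at day 10 and 1.05 (SE 0.22, adjusted p = 0.0271) at day 12, so that only day 12 passed the threshold, and this call was lost without CTRL replicate 1 (0.0617), 2 (0.0719) or 3 (0.0598) or IND replicate 1 (0.135) or 2 (0.0779). Without IND replicate 2, day 10 gave 0.96 (SE 0.26, adjusted p = 0.0784). PDGFB, PDGFC and PDGFD were called on no day, with log2 fold changes between -0.27 (PDGFB, day 14) and 0.68 (PDGFD, day 8). Of 6 endothelium markers, 3 were called at day 12, all higher in IND, with a sum of 48.1 to 58.4 CPM against 30.001 to 30.7 in CTRL. At day 8, 5 were called higher, with 105 to 119 against 47.5 to 71.5 CPM, and at day 10, 3 were, with 63.3 to 115 against 32.5 to 35.03 CPM. At day 14, when the PDGFA arms overlapped, these markers still had a higher sum in IND, 38.4 to 46.6 against 22.7 to 37.8 CPM, with no marker called. The sum of 6 caudal mesoderm markers was also higher in IND without overlap at days 8, 10 and 12, and overlapped at days 6 and 14. It was 65.3 to 113.7 against 28.3 to 55.1 CPM at day 8 and 56.03 to 71.04 against 20.6 to 39.97 at day 12. Of these markers CDX2 alone was called, at day 12, with a log2 fold change of 1.39. CDX1 and HES7 went the other way there, with -0.495 and -0.017. The part of both lists in the PDGFA value was not tested.

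FGF5, FGF11 and FGF20 were called on no day with all libraries, but at day 10 without IND replicate 2. FGF5 then had a log2 fold change of 0.88 (SE 0.26, adjusted p = 0.0315) and FGF20 of 1.63 (SE 0.44, adjusted p = 0.0214), both higher in IND, and the value of FGF11 is given above. FGF12, called at day 8, had 1.39 (SE 0.35, adjusted p = 0.0231) at day 10 without that library. FGF20 was at 0.849/0.6299/0.764 CPM in IND and 0.367/0.209/0.203 in CTRL on that day, so its values rest on few counts. The remaining members called on no day (FGF1, FGF2, FGF3, FGF7, FGF8, FGF17, FGF19, FGF22, KL and KLB, with FGF14) had adjusted p of 0.0863 (FGF1, day 14) or more where they were tested. FGF7, with 0.2602/1.49/1.34 CPM in IND against 2.63/2.33/2.94 in CTRL at day 8 and no overlap, had -1.34 (SE 0.48, adjusted p = 0.101). FGF16 was in most groups at the floor, and it was at 0.0207/0.924/0.0826 CPM in the IND libraries of day 10.

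The genes around the pathway were counted in 4 lists, to be read against all genes tested, of which 3.66%, 14.2%, 2.03%, 5.42% and 8.43% were called in either direction in IND on the 5 days in order. Of 30 signal transduction genes, between FRS2 and STAT3, 29 were tested on each day, and 0, 2, 0, 2 and 2 were called, all lower. Those named by rule at day 14 were SHC1, an adaptor of receptor kinases, with a log2 fold change of -0.35 (SE 0.096, adjusted p = 0.0383) and STAT3 with -0.28 (SE 0.082, adjusted p = 0.0495). Of 21 other ERK-responsive genes, 6 of 21 tested were called at day 14, 1 higher and 5 lower, among them the early response gene IER3 with -1.37 (SE 0.24, adjusted p = 0.00609), SPRED3 with -0.695 (SE 0.18, adjusted p = 0.0311) and MYC with -0.65 (SE 0.15, adjusted p = 0.013). Of 20 tested, 1 was called at day 6, lower, and 5 at day 8, of which 3 were higher, and 0 of 21 were at days 10 and 12. Of 29 FGF-binding and heparan sulfate genes, 26 were tested at days 6 and 8 and 27 later, and 4, 10, 3, 6 and 7 were called on the 5 days in order, with 2, 5, 1, 2 and 3 of them higher. These counts lay above the share of all genes on each day. The list was chosen with earlier results of these data known, so no excess can be read from them. GPC4, a cell surface glypican, was higher in IND on each day, at day 14 with 1.16 (SE 0.083, adjusted p = 3.71e-06). NDST3, a sulfotransferase of heparan sulfate, had -1.198 (SE 0.22, adjusted p = 0.00356) and SULF1, which removes sulfate from it, -0.91 (SE 0.13, adjusted p = 0.00199) at day 14. Of 16 genes related to PDGF and its sister receptors, 5 of 14 tested were called at day 6, 8 of 13 at day 8, 1 of 15 at day 10, 2 of 15 at day 12 and 3 of 14 at day 14, with 2, 5, 1, 2 and 3 higher. At day 8 the genes higher were PDGFRL, NRP2, KITLG, CSF1 and VEGFC, and those lower were PLAT, NRP1 and FLT1. The named ones at day 14 were PDGFRL with 1.14 (SE 0.2, adjusted p = 0.00279), the KIT ligand gene KITLG with 0.64 (SE 0.15, adjusted p = 0.0247) and NRP2, a co-receptor, with 0.52 (SE 0.093, adjusted p = 0.00299). In CTRL against day 4 at day 14, 14 of 29 signal transduction genes were called (7 higher), 12 of 21 ERK-responsive (10 higher), 16 of 26 FGF-binding and heparan sulfate (14 higher) and 5 of 13 PDGF-related genes (2 higher), where 47.6% of all genes were called.

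Markers of other cells changed across the same groups. In CTRL from day 4 to day 14, the summed level of 6 caudal mesoderm markers went from 155 to 169 CPM to 19.7 to 20.4, all 6 called lower, and that of 6 pluripotent markers from 1924 to 2101 to 173 to 236, with 3 of 5 tested called lower. Mesenchyme markers went from 4428 to 12118 CPM to 20075 to 26488, with 5 of 7 called higher and 2 lower, and the 12118 was day 4 replicate 3. Neuron and neural crest markers were each called higher for 6 of 6. In IND against CTRL, neural crest markers were called lower for 4 of 6 at days 6, 8 and 14, 3 of 6 at day 12 and 0 at day 10, neuron markers for 4 of 6 at days 8, 12 and 14 and 3 of 6 at day 10 but for none of 5 tested at day 6, and endothelium markers higher for 5 of 6 at day 8 and 3 of 6 at days 10 and 12. The gonad and kidney precursor genes moved on most days. GATA4, of the coelomic epithelium list, and WT1, of the intermediate mesoderm list, were called lower in IND on all 5 days, at day 8 with -1.34 (SE 0.12, adjusted p = 0.000169) and -2.32 (SE 0.31, adjusted p = 0.00692). OSR1 was called higher from day 8 on, with 2.304 (SE 0.32, adjusted p = 0.00468) at that day. Of the coelomic epithelium list 2 of 5, 3 of 6, 2 of 6, 2 of 6 and 3 of 6 tested were called on the 5 days, all lower but MSLN at day 6, and of the intermediate mesoderm list 1 of 5, 3 of 5, 2 of 6, 3 of 6 and 4 of 6, all lower but OSR1. The sums of the former overlapped between the arms at days 8, 10 and 12 and those of the latter were lower in IND on each day, with 49.1 to 60.05 CPM against 92.5 to 110 at day 8. Pluripotent markers were called on no day, with a sum of 1910 CPM in IND replicate 2 of day 10 and of at most 398 in CTRL of that day. Of the caudal mesoderm markers CDX2 alone was called in IND against CTRL, higher at day 12. NANOG was at the floor at day 4, and TBXT and MSGN1 were at the floor in CTRL from day 10 on. The part of each of these lists in the FGF and PDGF values was not tested.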

How the data were processed

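Bulk RNA-seq of H9-FOXL2-DDdCas9VP192 cells, 33 libraries, was analysed from the files deposited by the authors. Per the labels and methods, poly-A libraries without strand were trimmed (fastp 0.23.2), mapped to GRCh38 (HISAT2 2.0.5) and counted (featureCounts 1.5.0-p3). The authors deposited raw counts per gene, and FPKM scaled to gene length. Counts were tested with edgeR 4.0.16 (R 4.3.3): filterByExpr, TMM, robust quasi-likelihood test and Benjamini-Hochberg adjustment over all genes tested, at a threshold of 0.05. IND and DIFF used the 6 libraries of their 2 groups, and the interaction had 4 terms. CPM used TMM factors over all libraries. Fold changes are log2.

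Totals were 23940837 to 51912815 counts, and n = 3 technical replicates limits the precision. On simulated data for day 14 IND, edgeR recovered 180 of 200 changed genes over 18738 genes, with 12 false calls, and the interaction recovered 132 of 200 over 21845. Each changed gene was shifted by 2 in size on the log2 scale, for the interaction in IND of days 12 and 14 only. Recovery of smaller changes, which most changes called here were, was not measured. Values in every library are given for members called in at least 2 IND comparisons or in the interaction, or among the 5 highest FPKM of a role. Other members are given by ranges and counts, and list genes by the 3 largest changes called at day 14 (log2 CPM 1 or more on average, groups without overlap). RGS5 was left out of the pericyte markers, since 2 genes share its name. Alternatives tried were a replicate block, each library left out, DESeq2 1.42.0, no filter, RLE size factors, all 33 libraries in 1 fit and a minimum log2 fold change of 1. Members and lists were chosen with earlier results of these data known. Promoters came from RefSeq.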

Additional observations from a re-analysis of the deposited data

Results flagged for a closer look

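The test of the interaction of day and induction called 5 of the 39 members tested, where 2.38% of all genes were called. It covered the 30 libraries after day 4 (edgeR's quasi-likelihood test, adjusted over all genes tested). All 5 calls were lost without replicate 1 of every group, and those of FGFR2, FGFR3 and SPRY1 also without replicate 2 or 3. That of FGF13 was lost without replicate 3 as well, and those of FGFR2 and FGFR3 with RLE size factors. FGF18 had an adjusted p of 0.00324, with log2 fold changes of IND against CTRL of -2.10 at day 8 and 0.33 at day 14. FGF13 had 0.00368, with 0.17 at day 8 and -0.96 at day 14. SPRY1 had 0.0433, with 0.57 at day 10 (0.31 without IND replicate 2) and -0.78 at day 14. FGFR3 had 0.0484, with -0.60 at day 6 and 0.02 at day 14, and FGFR2 had 0.0493, with -0.49 at day 6 and 0.13 at day 14. Without IND replicate 2 of day 10 alone, 9 members were called, the 5 among them, and the share of all genes called in that fit is not given here. Groups of 3 libraries were too small for a test of single libraries within a group.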

How the results depend on the processing

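Of the 129 alternative counts of members called, 96 lay within 1.5 times the count of the main fit. Apart from IND at day 10, the number of all genes called in these refits is not given here. The counts below thus cannot be read as particular to the members. DESeq2 called 7 members in IND at day 6, 10 at day 10 and 8 in the interaction. Without a filter on low counts 7 were called in IND at day 6 and 13 in the interaction. With 1 fit over all 33 libraries 10 were called in IND at day 10, and with RLE size factors 3 in the interaction. With a log2 fold change of at least 1 in size, 0, 3, 1, 2 and 1 members were left in IND on the 5 days in order, and 14 in DIFF at day 6. Leaving out 1 library gave 1 to 6 members in IND at day 6, 5 to 14 at day 8, 0 to 10 at day 10, 1 to 4 at day 12 and 3 to 5 at day 14. In DIFF this gave 16 to 25 members at day 6, 16 to 26 at day 8, 19 to 29 at day 10, 21 to 25 at day 12 and 21 to 27 at day 14. For the interaction it gave 0 to 9, the 9 without IND replicate 2 of day 10, and 0 without replicate 1 of every group. At day 10, 10 members were called without IND replicate 2 and 0 without any other library. Over all genes 3768 were called there without that library and 404 with it, 1787 by DESeq2 and 3325 in the fit over all libraries. Without any other library of day 10, 11 to 72 genes were called. Fewer libraries entered the fits that left 1 out, while DESeq2 used the same libraries and the fit over all libraries used more. The cause of these changes was not tested. The 1780 alternative values of single members were those of results called in the main fit, so calls gained were not counted among them. Of these values, 1528 kept direction and side of the threshold, 252 kept direction but missed the threshold, and 0 changed direction. They are refits of the same libraries and no independent check of direction. The interaction test has no direction, so for its values only the side of the threshold applies.

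The replicate numbers of IND and CTRL did not pair the libraries. Deviations from the group means correlated from -0.284 to 0.221 over 15 pairs, and 5 pairs exceeded 0.1. With the replicate number as a block, 7, 11, 0, 4 and 5 members were called in IND on the 5 days in order, 23, 23, 21, 25 and 24 in DIFF on these days, and 4 in the interaction. Over all genes 15 were called with the block in IND at day 10, and the numbers for the other fits are not given here. The order of the 5 highest members of each role by FPKM held in 165 of 165 places with counts scaled to length and TMM size.

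All libraries came from 1 clone and 1 differentiation, so variation between differentiations is not measured. Members under 1 CPM rest on few counts, and small changes in them were not detectable at this depth.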
